A study of Bombyx mori with 4 samples.

Results

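Probes sw22828 (CDC25), sw14313 (cyclin J) and sw14443 (a match to cyclin J) were examined across 4 Polycomb knockdowns in silkworm cells. These 3 probes were taken by their names from 23229 gene probes on the array, and all 3 were among the 6491 probes measured on all 4 arrays. The study picked CDC25 and cyclin J for RT-PCR from these same arrays, as genes that rose in BmPHO and BmSCM RNAi and not in BmSCE or BmESC RNAi. The RT-PCR used the templates of the arrays. The paper reports a rise of the picked genes in BmPHO and BmSCM RNAi and no change in BmSCE or BmESC RNAi. Its text gives no fold for them. Probes sw22828 and sw14313 were thus chosen by the log2 ratios on these 4 arrays. Probe sw14443 was taken by its annotation, with earlier results of these data known. The ratios of all 3 are given as a description, with no test.

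The cells were BmN4-SID1, a derivative of a silkworm ovary cell line able to take in double-stranded RNA added to the culture medium. They were incubated with double-stranded RNA against BmPHO, BmSCM, BmSCE or BmESC, and the common control cells received double-stranded RNA against EGFP, a gene the silkworm does not have. RNA was taken on day 7. Each knockdown had 1 array of pooled RNA, with the knockdown in the Cy5 channel and EGFP RNAi in the Cy3 channel, and no array had the dyes exchanged. No spread between cultures can be estimated, dye and knockdown cannot be told apart, and the control RNA is shared by all 4 ratios.

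CDC25 is a dual-specificity phosphatase. It removes inhibitory phosphates from cyclin-dependent kinases and so allows entry into mitosis, while the kinases Wee1 and Myt1 add those phosphates. Drosophila has 2 such genes, string and twine. Cyclin J is a cyclin known in Drosophila from the ovary and the early embryo. The 4 silenced genes encode Polycomb group proteins, which keep genes repressed. Sce is a ubiquitin ligase of the PRC1 complex, Esc is a subunit of the PRC2 complex that methylates lysine of histone H3, Pho is a DNA-binding protein of the PhoRC complex, and Scm is a protein that associates with these complexes.

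The identity of the probes differed in strength. The array annotation gave no database hit for sw22828 and no description for sw14313. Their names, with the gene models BGIBMGA011902 for CDC25 and BGIBMGA008688 for cyclin J, come from the study's own gene table. Probe sw14443 is annotated as similar to cyclin J of Danio rerio, the zebrafish, and carries the gene number Bmb025278, whereas sw14313 carries Bmb024357. Whether both probes read 1 gene is not settled by these numbers. No other probe on the array was annotated as CDC25 or cyclin J. The primers below are shown because they fix which gene models the RT-PCR read. The oligonucleotide sequences of the 3 probes were not used here.
CDC25 sense primer: tattggaggagagcgaaactgactctgcct
CDC25 antisense primer: ccaatgagaattcgcagtggaagaccagga
Cyclin J sense primer: gacgacaaggcatccgaagtttgttcgaag
Cyclin J antisense primer: aattcgacgttaggatctaagcctcgcttc

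All 4 primers are 30 bases long. The CDC25 primers and the cyclin J sense primer have a GC content of 50%, and the cyclin J antisense primer has 46.7%.

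The arrays were alike in size and differed in how many probes could be read. A probe counted as measured where its spot passed the deposited flag, which held for 7434 probes in BmPHO, 8310 in BmSCM, 7833 in BmSCE and 9869 in BmESC RNAi. In the check of the labels, the match to extra sex combs (sw12637) had log2 ratios of -0.33 in BmPHO, -0.68 in BmSCM, 0.13 in BmSCE and -2.61 in BmESC RNAi. This bears on the BmESC label only, and the BmPHO, BmSCM and BmSCE labels were not checked in this way. The yeast spike-in controls did not behave alike on the arrays. Their log2 ratios in BmPHO and BmSCM RNAi lay above those in BmSCE and BmESC RNAi by a median of 2.60 over 8 controls (range 0.37 to 3.26). This difference runs the same way as that of the member probes, and its part in their ratios was not tested. Of the cell type markers, 14 to 16 of 35 ovary and germ line probes, 6 to 9 of 17 fat body, 4 to 5 of 10 silk gland, 7 to 9 of 25 haemocyte and 8 to 13 of 24 muscle probes were measured per array. Over all 23229 gene probes, 7434 to 9869 were measured per array. Members of each list thus passed the flag, as did 5 to 48 of the 289 blank and empty spots per array. These words in the annotation do not set an ovary origin apart from the others.

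CDC25 rose past 2-fold in BmPHO and BmSCM RNAi. Its log2 ratio against EGFP RNAi was 2.27 in BmPHO RNAi and 2.54 in BmSCM RNAi, which is 4.81-fold and 5.81-fold. The computed log2 ratio was 0.87 in BmSCE RNAi and 0.56 in BmESC RNAi. The BmSCE and BmESC values come from channels that were not above the blank level, as given below, so they do not place CDC25 on either side of 2-fold. Between spots of the control probe nearest in brightness, the log2 ratio had an SD of 0.22, 0.17, 0.24 and 0.31 on these 4 arrays in the same order (48 spots each). That is a spread within an array and says nothing of cultures. Among all measured probes sw22828 ranked 105 of 7434 from the top in BmPHO and 51 of 8310 in BmSCM RNAi.

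**Figure D1:**
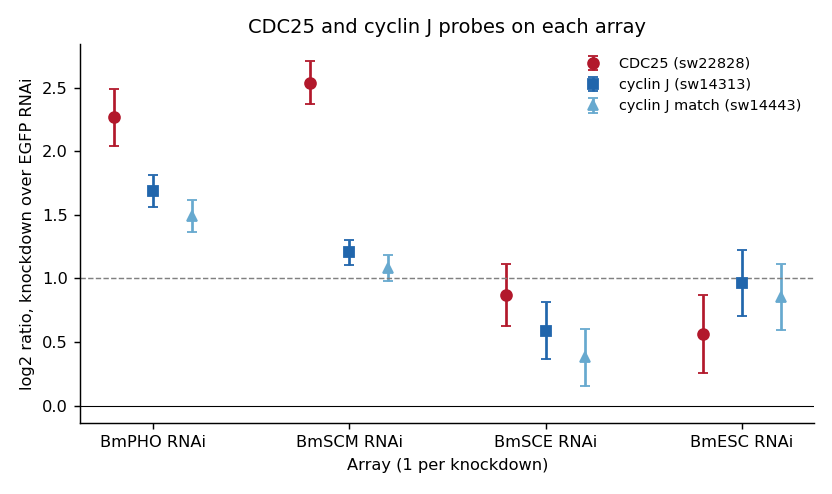
Log2 ratio of each knockdown over EGFP RNAi (vertical axis) for the 3 member probes on the 4 arrays (horizontal axis), with error bars of 1 SD over repeated spots of the nearest control probe other than Hex and a dashed line at 2-fold. CDC25 stands at 2.27 and 2.54 in BmPHO and BmSCM RNAi, its points of 0.87 and 0.56 in BmSCE and BmESC RNAi come from channels not above the blank level, and the cyclin J probes come close to the dashed line in BmSCM and BmESC RNAi.

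The intensities of CDC25 on the 4 arrays were as follows. Its Cy5 intensity was 1568 in BmPHO, 2447 in BmSCM, 572 in BmSCE and 536 in BmESC RNAi, in arbitrary units after the authors' background subtraction. The Cy3 intensity, which reads the same EGFP RNAi control on every array, was 287, 298, 263 and 296 on the arrays of these knockdowns. The knockdown channel was thus high on the BmPHO and BmSCM arrays. The spot carried the deposited flag M on the BmSCE and BmESC arrays and E on the other arrays, whereas the cyclin J spots carried E on all 4. Each channel was then divided by its median over the 6491 probes measured on all arrays. The scaled Cy5 value of CDC25 was 1.02 in BmPHO and 1.45 in BmSCM RNAi.

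CDC25 was a dim probe in the control cells. On the BmPHO and BmSCM arrays, 95% of the 289 blank and empty spots lay below 278.8 and 287 in Cy5, and below 227 and 189.2 in Cy3. Both channels of sw22828 were above these levels. On the BmSCE and BmESC arrays the same levels were far higher, at 704.4 and 1381 in Cy5 and 632.6 and 1111 in Cy3, and neither channel of sw22828 exceeded them. In Cy5, 24 of the 289 blank and empty spots were brighter than the probe in BmSCE and 34 in BmESC RNAi. No fold change of CDC25 can therefore be read in these 2 knockdowns, and the ratios of 0.87 and 0.56 are not a measure of no change.

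The median blank and empty spot was at 1 or below in Cy5 and at 2 or 3 in Cy3 on every array, so over the whole array the high levels come from a minority of bright blank spots. In the print block of sw22828 this did not hold on the BmESC array. There the median of the 10 blank and empty spots was Cy5 185 and Cy3 146, while on the BmPHO, BmSCM and BmSCE arrays it was 6.5, 7 and 4 in Cy5 and 5.5, 13 and 14.5 in Cy3. The brightest of these 10 spots had Cy5 45 and Cy3 37 on the BmPHO array and Cy5 50 and Cy3 30 on the BmSCM array. On the BmSCE array the brightest of the 10 had Cy5 283 and Cy3 380, and on the BmESC array Cy5 531 and Cy3 471. Against these neighbouring blanks the Cy5 signal of CDC25 stood well above in BmPHO and BmSCM RNAi, was above in BmSCE RNAi and was level with the brightest in BmESC RNAi. Its Cy3 signal on the BmSCE and BmESC arrays was below the brightest neighbouring blank.

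With the dim channels replaced by the blank level, the CDC25 difference remained as a bound. The mean scaled Cy5 value of sw22828 in BmPHO and BmSCM RNAi was at least 2.36-fold higher than the mean of the blank levels in BmSCE and BmESC RNAi (1.24 on the log2 scale). In a stricter setting chosen after seeing the data, spots of printing solvent (50% DMSO) were counted as blanks too, which raised the Cy3 blank level on the BmPHO and BmSCM arrays to 548.25 and 481.3. CDC25 was then at least 2.52-fold higher in BmPHO RNAi and at least 3.60-fold higher in BmSCM RNAi than in EGFP RNAi.

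**Figure D2:**
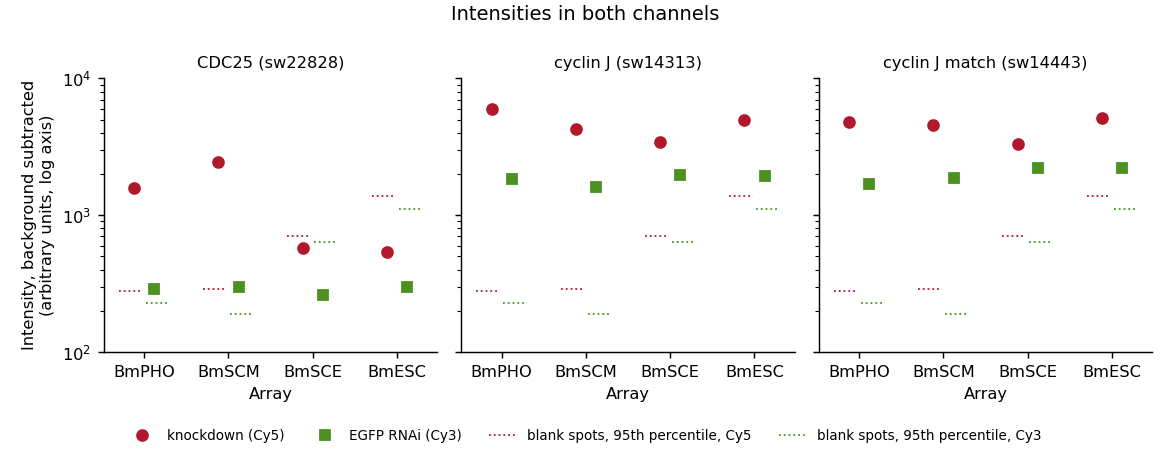
Background-subtracted intensity (vertical axis, arbitrary units, log axis) of the 3 member probes in the knockdown channel (Cy5, circles) and the EGFP RNAi channel (Cy3, squares) on each array (horizontal axis), with dotted lines at the 95th percentile of 289 blank and empty spots. The CDC25 points lie below both lines in BmSCE and BmESC RNAi, and the cyclin J points lie above them on every array.

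Cyclin J was read above the blank level on all arrays. Probe sw14313 had log2 ratios of 1.69 in BmPHO, 1.20 in BmSCM, 0.59 in BmSCE and 0.96 in BmESC RNAi. These are 3.22-fold, 2.30-fold, 1.50-fold and 1.95-fold over EGFP RNAi. The ratio was above 1 in all 4 knockdowns, and the BmESC value lies just under 2-fold while the BmSCM value lies just over it. By RT-PCR the paper describes the picked genes, as a set, as unchanged in BmESC RNAi. Its methods call the RT-PCR used to check the arrays semi-quantitative, so the array fold and that reading are different measures. Cy5 was 5934 in BmPHO, 4290 in BmSCM, 3424 in BmSCE and 4948 in BmESC RNAi, and Cy3 was 1826, 1605, 1970 and 1945 on the same arrays. Before any scaling, cyclin J was thus brighter in BmESC than in BmSCM RNAi. After scaling to the array medians the Cy5 values were 3.87, 2.55, 1.90 and 2.43, so BmSCM and BmESC RNAi stood close together.

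Probe sw14443, the match to zebrafish cyclin J, followed the same order at slightly lower ratios. Its log2 ratios were 1.49 in BmPHO, 1.08 in BmSCM, 0.38 in BmSCE and 0.85 in BmESC RNAi, or 2.81-fold, 2.11-fold, 1.30-fold and 1.81-fold. Cy5 was 4807 in BmPHO, 4537 in BmSCM, 3306 in BmSCE and 5173 in BmESC RNAi, with its highest unscaled value in BmESC RNAi. Cy3 was 1680, 1879, 2200 and 2195 on these arrays. The log2 ratio of sw14313 exceeded that of sw14443 by 0.20 in BmPHO, 0.12 in BmSCM, 0.21 in BmSCE and 0.11 in BmESC RNAi. Each of these gaps was within 2 combined spot SDs. By the root mean square difference of the 4 log2 ratios (0.17), sw14443 was the 5th closest of 6490 probes to sw14313. The 2 probes were printed in different blocks, and they share the 4 hybridized RNA samples.

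Most steps between neighbouring knockdowns were within the spread of spots. For CDC25 the computed order was BmSCM, BmPHO, BmSCE and BmESC, from high to low. The step of 0.27 between BmSCM and BmPHO was within 2 combined spot SDs, and the steps that involve BmSCE or BmESC RNAi cannot be read for this probe. Both cyclin J probes had the order BmPHO, BmSCM, BmESC and BmSCE. For both, the step from BmSCM to BmESC was smaller than 2 combined spot SDs, at 0.24 for sw14313 and 0.23 for sw14443. So was the step from BmESC to BmSCE, at 0.37 for sw14313 and 0.47 for sw14443. The step from BmPHO to BmSCM, 0.48 for sw14313 and 0.41 for sw14443, was larger than 2 combined SDs where the Hex control was left out, and smaller where it was used. Hex is nearest in brightness to these probes on some arrays, but its Cy5 signal is near background and its log2 ratio varied between spots with an SD of up to 0.94.

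By the computed ratios, all 3 probes passed 2-fold in BmPHO RNAi and all 3 in BmSCM RNAi, where 11.8% and 9.46% of all measured probes rose past 2-fold. None of the 3 passed it in BmSCE RNAi, where 2.43% of probes did, or in BmESC RNAi, where 4.46% did. The full pattern, past 2-fold in BmPHO and BmSCM RNAi and not in BmSCE or BmESC RNAi, was met by 272 of 6491 probes, or 4.19%, and the weaker pattern of both BmPHO and BmSCM above both BmSCE and BmESC by 1689 probes, or 26%. For CDC25 the part of the pattern that concerns BmSCE and BmESC RNAi was not readable. Since the study chose CDC25 and cyclin J by the full pattern, nothing is read from these counts.

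The mean log2 ratio of BmPHO and BmSCM minus that of BmSCE and BmESC was 0.67 for sw14313 and 0.67 for sw14443, at ranks 654 and 655 of 6491 probes. For CDC25 the computed difference of 1.69 rests on BmSCE and BmESC ratios that are not above the blank level, and the value that can be read is the bound of at least 1.24 given above. The lowest of the BmPHO and BmSCM values exceeded the highest of the BmSCE and BmESC values by 0.24 for sw14313 and by 0.23 for sw14443.

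**Figure D3:**
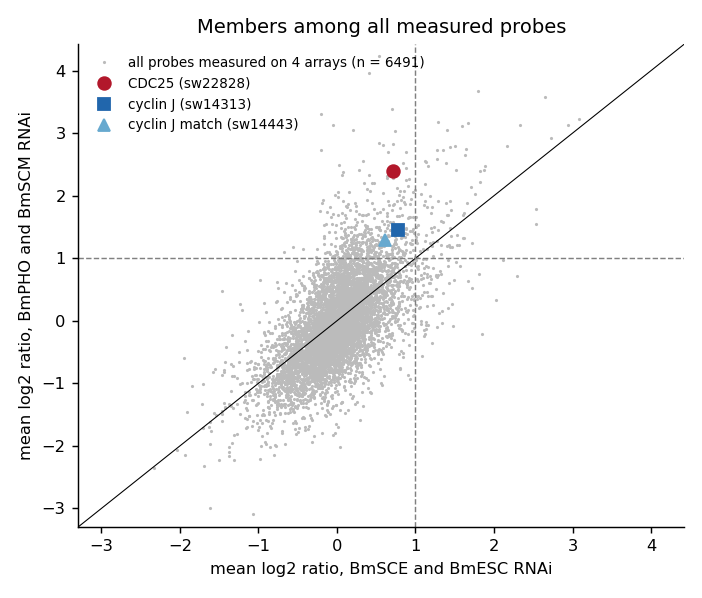
Mean log2 ratio over EGFP RNAi in BmPHO and BmSCM RNAi (vertical axis) against that in BmSCE and BmESC RNAi (horizontal axis) for the 6491 probes measured on all arrays (grey), with the member probes marked, dashed lines at 2-fold and a solid line of equal means. The cyclin J probes lie above the line by 0.67 each. The horizontal place of CDC25 comes from channels not above the blank level, and the bound on its difference, in the scaled Cy5 channel, is at least 1.24.

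The call of cyclin J turned on the normalization. CDC25 stayed past 2-fold in BmPHO and BmSCM RNAi in all 5 ways of processing that were tried, and its BmSCE and BmESC ratios were not readable under any of them. Probe sw14313 kept the full pattern in 4 and lost it under median centring, where its BmESC value became 1.15. Probe sw14443 kept it in 2 of 5. Under median centring its BmESC value was 1.04, with a floor of 200 on the intensities its BmSCM value was 0.98, and in the ratio deposited by the authors the BmSCM value was 0.9994, just under the threshold. Under median centring 5.53% of probes had the pattern, and in the deposited ratio 3.85% had it. No setting moved a member past 2-fold in BmSCE RNAi, where the highest computed value was 0.99, the CDC25 ratio that cannot be read.

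**Figure D4:**
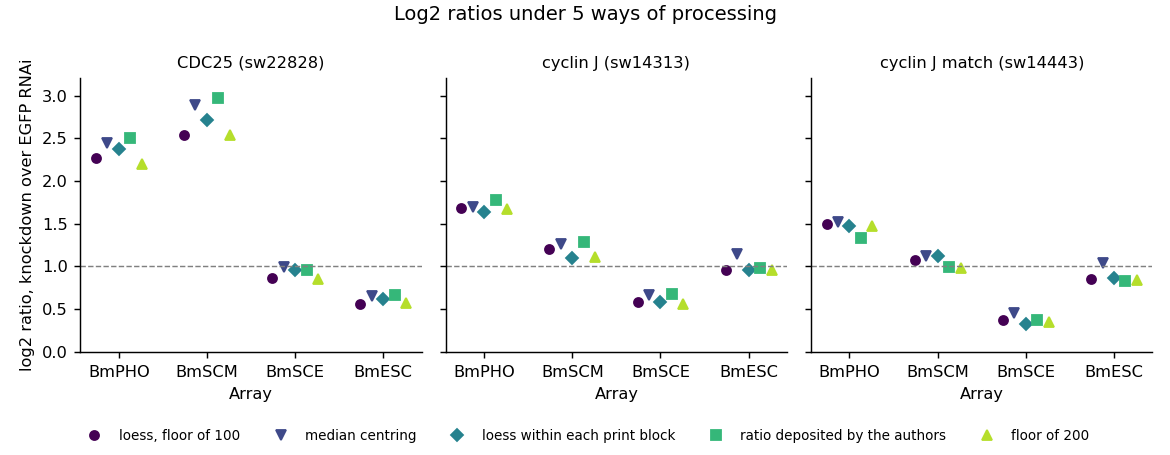
Log2 ratio over EGFP RNAi (vertical axis) of the 3 member probes on each array (horizontal axis) under 5 ways of processing, 1 marker each, with a dashed line at 2-fold. The CDC25 points in BmPHO and BmSCM RNAi lie at 2.20 or above under all 5, whereas the BmESC points of both cyclin J probes and the BmSCM points of sw14443 lie on both sides of the line.

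Few other probes of the cell cycle rose past 2-fold. A list of 81 further probes was found by words in the annotation, and 53 to 57 of them were measured per array. Of these, 1 rose past 2-fold in BmPHO, 2 in BmSCM, 0 in BmSCE and 1 in BmESC RNAi, where 11.8%, 9.46%, 2.43% and 4.46% of all measured probes rose, while 5, 6, 1 and 5 fell, where 7.84%, 6.29%, 1.1% and 3.25% of all measured probes fell in these knockdowns. The median log2 ratio of the list was -0.40 in BmPHO, -0.43 in BmSCM, -0.14 in BmSCE and -0.22 in BmESC RNAi, beside 0.05, 0.07, 0.02 and 0.02 over all measured probes. The list medians stayed below 0 under all 5 ways of processing. Median centring raised the median of all measured probes in BmSCM RNAi to 0.31, and that of the list there was -0.18.

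The regulators of CDC25 did not move as 1 group. Of 13 probes, 1 of 9 measured rose in BmPHO, 2 of 8 in BmSCM, 0 of 10 in BmSCE and 0 of 11 in BmESC RNAi, beside 11.8%, 9.46%, 2.43% and 4.46% of all measured probes. In the same order 0 of 9, 1 of 8, 1 of 10 and 1 of 11 fell, beside 7.84%, 6.29%, 1.1% and 3.25% of all measured probes. The match to Drosophila polo kinase kinase 1 (sw08567), which acts on the mitotic kinase polo, rose with log2 ratios of 1.04 in BmPHO and 1.47 in BmSCM RNAi, and had 0.44 in BmSCE and 0.22 in BmESC RNAi. Of the other probes with this annotation, sw08618 was measured only in BmSCE (0.54) and BmESC RNAi (0.30), and sw02728 on no array. A match to the B' regulatory subunit of protein phosphatase 2A (sw05775), a phosphatase that opposes mitotic kinases, had 0.96 in BmPHO, 1.15 in BmSCM, 0.77 in BmSCE and 0.46 in BmESC RNAi. The match to the epsilon B56 subunit of the same phosphatase (sw10680) went the other way, with -0.18, -1.14, -1.23 and -1.27 in this order of knockdowns. Probes sw08567, sw05775 and sw10680 were the 3 regulators that passed 2-fold on any array. The match to Wee1 (sw11376), the kinase that opposes CDC25, had -0.42 in BmPHO, -0.56 in BmSCE and -0.47 in BmESC RNAi and was not measured in BmSCM RNAi.

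The group of cyclin-dependent kinases had 6 probes measured on each array, among them a regulatory subunit (sw13641). Of the 6, 0 rose past 2-fold in BmPHO, 0 in BmSCM, 0 in BmSCE and 1 in BmESC RNAi. Of all measured probes, 11.8%, 9.46%, 2.43% and 4.46% rose. In the same order 1, 2, 0 and 1 of the 6 fell, beside 7.84%, 6.29%, 1.1% and 3.25% of all measured probes. Silkworm cdc2 (sw02944), the mitotic kinase itself, had log2 ratios of -0.05 in BmPHO, -0.09 in BmSCM, -0.40 in BmSCE and -0.41 in BmESC RNAi. The match to CDK2 (sw11737), a kinase of DNA replication in vertebrates, had -1.55 in BmPHO, -1.88 in BmSCM, -0.96 in BmSCE and -1.35 in BmESC RNAi, so that it lay beyond 2-fold in all but BmSCE RNAi. The match to CDK7 (sw08391), the kinase that activates other cyclin-dependent kinases, had -0.90, -1.16, -0.64 and -0.93 in this order. The match to CDK5 (sw14428), best known from neurons, rose only in BmESC RNAi (1.22) and had 0.77 in BmPHO, -0.26 in BmSCM and 0.64 in BmSCE RNAi.

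None of the measured cyclins of the cell cycle other than the member probe passed 2-fold in either direction on any array, with 4 to 6 of 10 measured. Of all measured probes, 11.8% rose in BmPHO, 9.46% in BmSCM, 2.43% in BmSCE and 4.46% in BmESC RNAi. In the same order 7.84%, 6.29%, 1.1% and 3.25% fell. With so few cyclin probes, nothing is read from this count. Silkworm cyclin B (sw04030), the partner of cdc2 in mitosis, had 0.47 in BmPHO, 0.88 in BmSCM, -0.09 in BmSCE and -0.22 in BmESC RNAi. The match to cyclin G2 (sw11733) had 0.76, 0.73, 0.18 and 0.14 in this order. Both had their higher values in BmPHO and BmSCM RNAi and both stayed under 2-fold there. The match to cyclin A1 (sw12378) had -0.15 in BmPHO, 0.32 in BmSCM, -0.12 in BmSCE and 0.08 in BmESC RNAi. Cyclin A (sw12379) had -0.43, 0.04, -0.50 and 0.04 in this order. Neither cyclin A probe had both BmPHO and BmSCM above both BmSCE and BmESC RNAi. That order was met by 26% of the 6491 probes measured on all arrays. The probes of the G1/S transition and of replication licensing had a median of -0.73 in BmPHO, -0.48 in BmSCM, -0.10 in BmSCE and -0.22 in BmESC RNAi. The BmSCE median changed sign under median centring. Past 2-fold, 2 of 19, 1 of 18, 0 of 17 and 0 of 19 of these probes fell. The shares of all measured probes were 7.84%, 6.29%, 1.1% and 3.25%. One that fell is annotated as similar to the cyclin-dependent kinase inhibitor p27 (sw07536), at -1.065 in BmPHO and -1.061 in BmSCM RNAi. The other is annotated as similar to the transcription factor E2F7 (sw10911), at -1.65 and -0.99. The fallen probes were thus not matches to licensing factors. The mitotic exit and checkpoint probes had medians of -0.40, -0.53, -0.01 and -0.12, of which the BmSCE and BmESC medians changed sign under median centring. Past 2-fold, 2 of 13 of them fell in BmPHO, 2 of 14 in BmSCM, 0 of 13 in BmSCE and 3 of 13 in BmESC RNAi. Of all measured probes, 7.84%, 6.29%, 1.1% and 3.25% fell in this order. None of this group rose past 2-fold on any array.

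**Figure D5:**
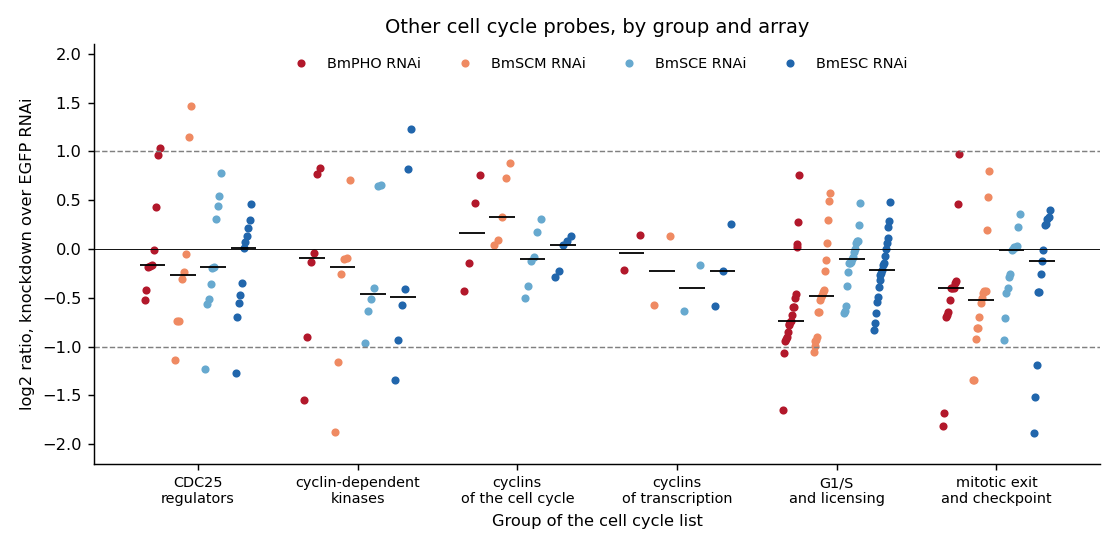
Log2 ratio over EGFP RNAi (vertical axis) of the measured probes of the cell cycle list without the 3 members, by group (horizontal axis) and array (colours), with a black bar at each median and dashed lines at 2-fold. The G1/S and licensing probes have their lowest medians in BmPHO (-0.73) and BmSCM RNAi (-0.48), and few probes of any group lie above the upper line.

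The probes closest in their computed ratios to CDC25 were found over all 4 arrays, although its BmSCE and BmESC ratios are not above the blank level, so the distances below describe the computed values only. Of the 4854 annotated probes measured on all 4 arrays, ranked by the root mean square difference of the 4 log2 ratios from those of sw22828, the nearest was a match to the Drosophila N-acetylgalactosaminyltransferase PGANT5 (sw14162, 0.15), an enzyme that adds sugars to proteins. Its log2 ratios were 2.08 in BmPHO, 2.63 in BmSCM, 0.68 in BmSCE and 0.69 in BmESC RNAi. It was followed by matches to the protein C14orf104 (sw16436, 0.17) and to bacterial PspA (sw07014, 0.24), by a silkworm ORF1 (sw18514, 0.24) and by a match to a phospholipase C beta (sw17981, 0.26). Of these 5, sw18514 was bright in the control channel, with Cy3 of 2217 to 3116, and sw16436 was as dim as CDC25, with Cy3 of 288 to 332. Like CDC25, sw16436 and sw07014 exceeded the blank level in neither channel on the BmSCE and BmESC arrays. Probe sw17981 exceeded it in neither channel on the BmESC array and only in Cy5 on the BmSCE array.

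The probe closest to cyclin J (sw14313) was the ORF of a non-LTR retrotransposon (sw02882), at a root mean square difference of 0.043. Its log2 ratios were 1.72 in BmPHO, 1.27 in BmSCM, 0.62 in BmSCE and 0.93 in BmESC RNAi. A predicted Anopheles gambiae protein (sw03969, 0.15) and matches to diversin (sw14231, 0.17), nidogen (sw19219, 0.19) and retinol dehydrogenase 14 (sw07516, 0.19) came next. Probes sw14231 and sw19219 exceeded the blank level in neither channel on the BmSCE and BmESC arrays, so their distances describe computed values only. The Cy3 signal of sw02882, sw03969 and sw07516 was below that level on the BmESC array. With 4 arrays that share 1 control RNA, likeness of this kind is a description of 4 values per probe.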

How the data were processed

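RNA of BmN4-SID1 cells on day 7 was compared on 2-colour arrays of 24288 spots, 1 array per knockdown against EGFP RNAi. The intensity columns were deposited by the authors with local background subtracted and the dyes not yet normalized. The ratio column deposited beside them is Cy5 divided by Cy3, normalized within the array by the authors. The method of that step, the image software and the genome build are not named in the sources used here. The deposited table of the series holds the log2 of that ratio, within 0.001 for all spots.

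Intensities under 100 were set to 100, log2 ratios were taken, and loess against mean brightness was fitted within each array on gene probes (span 0.3) with limma 3.58.1 in R 4.3.3. Tables were made in Python 3.11.15 with numpy 2.4.6 and pandas 2.3.3. The values correlated with those of the deposited ratio at r = 0.961 to 0.971 across measured probes of an array. Probes are not independent replicates. The rule of the deposited spot flags is not stated. On these values, spots with no flag had a brighter channel of at most 399, flag M went with 400 to 1499 and flag E with 1500 or more, and a flagged spot counted as measured. 1 spot flagged B in BmSCE RNAi was left out. Blank and empty spots that passed numbered 6 in BmPHO, 5 in BmSCM, 36 in BmSCE and 48 in BmESC RNAi. A call needs a change over 2-fold, the threshold of the study, and with 1 array per knockdown no p-value was computed. The number of arrays limits the precision. The script was tested on simulated data.

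Spread is the SD over repeated spots of the control probe nearest in brightness. The Hex control was left out of it as an alternative chosen after seeing the data, since its Cy5 channel is dim. Other alternatives were median centring, loess within each print block, the deposited ratio, a floor of 200, both channels at least 400, no filter, and 50% DMSO spots counted as blanks. The members and lists were chosen with earlier results of these data known. Named genes are the members, the CDC25 regulators, cyclin-dependent kinases and cyclins past 2-fold on any array (up to 12), the 5 nearest patterns of sw22828 and of sw14313, and sw12637. Wee1, cdc2, cyclin B and cyclin G2 were added for their roles after their values were seen. The cyclin A probes, the matches to p27 and E2F7, the regulatory subunit sw13641 and the other polo kinase kinase 1 probes were also added after their values were seen. Probes caught in the cell cycle list by part of a word, and matches to the CDK7 partner MAT1, were left out after their annotation was read. Gene names come from the array annotation or the study's gene table. The authors' lists of raised genes were used only for these names.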

Additional observations from a re-analysis of the deposited data

Results flagged for a closer look

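Among 4 arrays, 1 control-channel value stood apart from the other 3 for each cyclin J probe. The scaled Cy3 values of sw14313 were 1.29 on the BmPHO array, 1.21 on BmSCM, 1.28 on BmSCE and 1.28 on BmESC, and the gap of the BmSCM value to the next took 0.846 of the whole range on the log2 scale. The whole range of these values is 1.07-fold. For sw14443 the scaled Cy3 values were 1.19, 1.42, 1.43 and 1.45 in this order, and the gap below the others of the BmPHO value took 0.890 of a range of 1.22-fold. Chance marks about 1 in 20 groups in this way. The Cy3 channel reads the same EGFP RNAi control on every array, so these gaps are differences between arrays, and a low Cy3 value raises the ratio of that array.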

How the results depend on the processing

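The log2 ratio of CDC25 moved by more than the spread between spots in BmPHO RNAi under the deposited ratio (2.51) and with DMSO spots as blanks (a bound of 1.33), and in BmSCM RNAi under median centring (2.89), loess within each print block (2.71), the deposited ratio (2.98) and the DMSO bound (1.85), all past 2-fold. The difference between BmPHO with BmSCM and BmSCE with BmESC RNAi was computed as 1.93 for CDC25 with the deposited ratio, with the BmSCE and BmESC values not above the blank level. Probe sw14313 moved to 1.09 in BmSCM RNAi under loess within each print block and sw14443 to 1.34 in BmPHO RNAi with the deposited ratio. These 2 moves exceed the spread only where Hex is left out, with SDs of 0.10 and 0.12. The Hex SDs on these arrays were 0.94 and 0.41, and both moves lie within them. The cause of the moves was not tested. No value of a member changed sign under the 5 ways of processing. With DMSO spots as blanks the computed CDC25 value was -0.89 in BmSCE and -1.48 in BmESC RNAi, from channels not above the blank level.

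With both channels at least 400, probes risen numbered 449 in BmPHO, 405 in BmSCM, 110 in BmSCE and 264 in BmESC RNAi, and probes fallen in BmSCE RNAi 55. That setting leaves out CDC25, whose Cy3 lies under 400. Median centring gave 1519 risen and 266 fallen in BmSCM RNAi, beside 786 and 523, and 48 fallen in BmSCE RNAi, beside 86. With no filter 180 fell in BmSCE RNAi.

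No paired analysis was possible because each knockdown has 1 array. Leaving out an array would remove its knockdown, so that was not run either, nor was a slide block. Signal over background limits CDC25 in BmSCE and BmESC RNAi, where neither channel exceeded the blank level, and in EGFP RNAi, where on the BmPHO and BmSCM arrays it exceeded that level by under 2-fold.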
